A study of Mus musculus with 4 samples.

Results

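The FGF ligand and receptor genes were examined in CD51+;CD200+ skeletal stem/progenitor cells sorted from 3 cranial sutures of the mouse, the posterior frontal (PF), the sagittal (SAG), and the coronal (COR), and from the tibial growth plate (GP). They were chosen by name, without reference to a cutoff on their values, as 6 genes of secreted ligands (*Fgf1*, *Fgf2*, *Fgf7*, *Fgf9*, *Fgf10*, and *Fgf18*) and 4 of receptors (*Fgfr1*, *Fgfr2*, *Fgfr3*, and *Fgfrl1*), 10 of the 23946 gene symbols listed. All 10 were above 0 in every library. The cells were taken from wild type CD-1 mice at postnatal day 3, pooled over animals, and sorted as CD51+ and CD200+ and as negative for 6C3, CD105, Thy1.1 and Thy1.2, Tie2, Ter119, and CD45. The suture samples were cut with the osteogenic fronts, the suture mesenchyme, the underlying dura mater, and the overlying periosteum. PF is the suture that closes in early life, SAG and COR stay patent, and GP served as the reference. Each tissue gave 1 library without a replicate. Tissue and library therefore cannot be told apart, and no difference below was tested.

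FGF ligands bind receptor tyrosine kinases together with heparan sulfate and signal mainly through the ERK pathway. In the skull, mutations that activate the human *FGFR1*, *FGFR2*, or *FGFR3* genes fuse sutures early, and in long bones FGFR3 restrains the growth plate. FGF18 and FGF9 act on osteoblasts and chondrocytes, FGF7 and FGF10 are made by mesenchyme and act on a splice form of FGFR2 found in epithelia, and FGF1 and FGF2 lack a classical secretion signal. FGFRL1 binds ligands but has no kinase domain. The deposited values are FPKM, fragments per kilobase of transcript after scaling for library size, summed over the splice forms of a gene.

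The promoters of *Fgf18*, *Fgfr3*, and *Fgfr2* are shown because the suture results below turn on these genes. Each is the stretch of 250 bases before the RefSeq transcription start (table build GRCm38.p6), placed on mm9 by a single exact match, 5′ to 3′ on the strand of the gene. For *Fgf18* it lies at chr11:33047401-33047650 on the minus strand, for *Fgfr3* (the more upstream of 2 listed starts) at chr5:34064123-34064372 on the plus strand, and for *Fgfr2* at chr7:137410323-137410572 on the minus strand. Capitals mark GC boxes (GGGCGG on either strand).
Fgf18: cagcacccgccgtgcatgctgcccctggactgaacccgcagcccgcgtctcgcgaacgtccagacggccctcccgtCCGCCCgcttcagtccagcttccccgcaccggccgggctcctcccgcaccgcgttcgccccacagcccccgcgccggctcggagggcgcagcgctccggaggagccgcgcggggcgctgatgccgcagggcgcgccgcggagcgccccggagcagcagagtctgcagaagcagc
Fgfr3: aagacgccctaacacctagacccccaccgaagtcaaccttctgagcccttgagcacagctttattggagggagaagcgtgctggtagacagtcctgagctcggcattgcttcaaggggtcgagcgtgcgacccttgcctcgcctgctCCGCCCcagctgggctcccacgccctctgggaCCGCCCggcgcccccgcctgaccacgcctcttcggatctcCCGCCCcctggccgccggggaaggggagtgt
Fgfr2: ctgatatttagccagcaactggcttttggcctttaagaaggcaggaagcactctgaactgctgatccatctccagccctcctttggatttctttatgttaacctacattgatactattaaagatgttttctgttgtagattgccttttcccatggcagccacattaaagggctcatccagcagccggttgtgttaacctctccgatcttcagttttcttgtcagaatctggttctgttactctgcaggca

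The *Fgf18* stretch was 77.2% G or C with 37 CpG and 1 GC box, that of *Fgfr3* 66.8% with 19 CpG and 3 GC boxes, and that of *Fgfr2* 44.0% with 2 CpG and no GC box. Unlike those of *Fgf18* and *Fgfr3*, the *Fgfr2* stretch does not adjoin the longest coding transcript, whose upstream end is at 137409759. Its letters describe only the 1 start listed for *Fgfr2*, a gene with 22 coding transcripts. The median over 32851 listed promoters was 52.4% with 6 CpG, and 32.7% of them held a GC box. The table matched 8 of the 10 genes, all but *Fgf1* and *Fgfr1*, with 9 starts, and 6 of these starts held a GC box. The TATA box letters TATAAA were on neither strand of any of the 9, and were found in 12.4% of all listed promoters. The RUNX core, TGTGGT, was likewise in 0 of the 9 and in 14.0% of all. An E-box bound by TWIST1, CATATG, was in 0 of the 9 and in 3.46% of all. These are matches of letters only.

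The total FPKM of the libraries was between 447174 and 550958. One fragment was worth 0.0580 FPKM times kilobases in PF and between 0.0254 and 0.0303 in the other libraries, read from the lowest step of 4651 genes with a single coding transcript, which puts PF at 43.9% of the fragments of SAG. The values of the genes were converted to approximate fragments with this step and the length of the longest coding transcript. The sorting markers *Itgav* (CD51) and *Cd200* were at 6.20 to 15.0 FPKM and 23.5 to 62.6 FPKM. Of the genes of the negative markers, *Enpep* (6C3) was at 7.05 FPKM in PF, 3.74 in COR, 2.74 in SAG, and 1.39 in GP. It was past 3-fold for GP vs PF. *Eng* (CD105) was at 1.70 in PF, 1.07 in COR, 0.760 in SAG, and 0.679 in GP. The genes of CD45, Tie2, and Thy1 stayed below 1 FPKM in every library. *Hoxa10*, a hindlimb gene, was at 79.6 FPKM in GP and below 1 in the sutures. The summed FPKM of 12 cartilage markers was high in SAG (4513) and GP (4045) and low in PF (279) and COR (246). That of 9 osteoblast markers was highest in COR (11857), then GP (8188), PF (2731), and SAG (888). None of these 21 markers was at 0 in any library. The 7 choroid plexus markers summed to 5437 in SAG, of which *Ttr* was 5103, and to between 181 and 518 elsewhere. Of the 7, 5 were highest in SAG and 2, *Enpp2* and *Sostdc1*, in GP. In bulk samples such as these, fewer cells of a type and less RNA per cell cannot be told apart.

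*Fgf18* was the most abundant ligand gene in every library. The gene (mm9 chromosome 11, 33017430 to 33047400) was at 61.4 FPKM in GP, 24.4 in PF, 5.06 in COR, and 4.61 in SAG. GP was 2.51 times PF, PF was 4.83 times COR, and COR and SAG differed only 1.10-fold in FPKM. On the log2(FPKM + 1) scale, which is used for ratios here and understates changes of low genes, PF was above SAG by 2.18 and above COR by 2.07, past the 3-fold mark of 1.58. These values rest on about 2198 fragments in GP and 457 in PF, and on 190 and 197 in COR and SAG. *Fgf18* made up 82.3% of the summed FPKM of the 6 ligands in PF, 76.1% in GP, 64.7% in SAG, and 41.3% in COR.

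**Figure D1:**
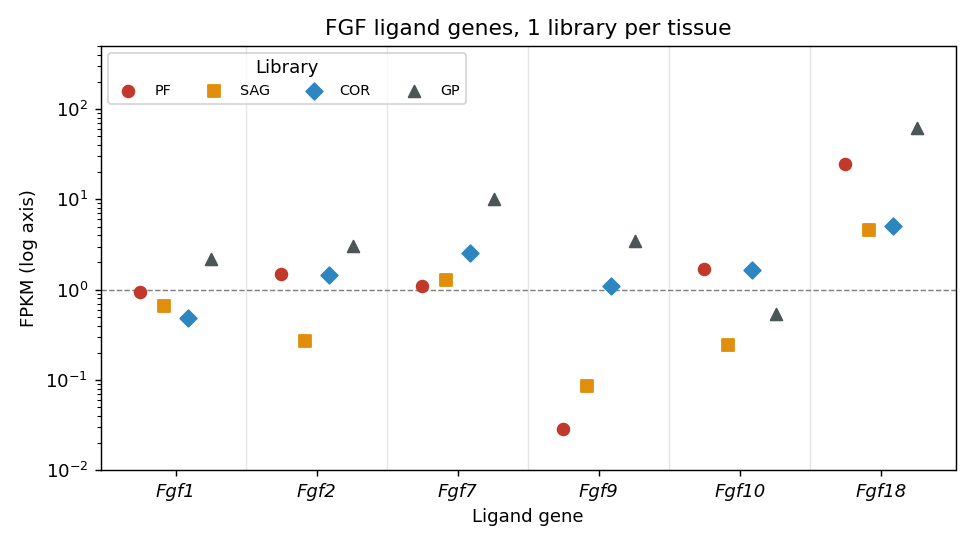
FPKM (log axis) of the 6 FGF ligand genes, 1 point per library, with a dashed line at 1 FPKM. GP is highest for every gene except *Fgf10*, and *Fgf18* separates GP and PF (61.4 and 24.4) from COR and SAG (5.06 and 4.61).

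*Fgf7*, a mesenchymal ligand of the epithelial form of FGFR2, was the second ligand in GP at 10.0 FPKM. It was at 2.52 FPKM in COR, 1.26 in SAG, and 1.09 in PF. GP was 3.98 times the highest suture, and SAG and PF stood 1.16-fold apart. By +1 ratio *Fgf7* was past 3-fold between GP and each suture, by 2.39 (log2) for PF, 2.28 for SAG, and 1.65 for COR. The last of these lay close to the 3-fold mark, and 3 other ways of processing put it below.

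*Fgf9*, which acts on mesenchymal and cartilage cells, had the same order of libraries as *Fgf7*. It was at 3.45 FPKM in GP, 1.10 in COR, 0.0866 in SAG, and 0.0283 in PF. In SAG and PF these values stand for about 11 and 2 fragments, against about 122 in COR and 365 in GP, so the order of SAG and PF rests on very few fragments. The log2 ratio with 1 FPKM added was 2.11 for GP vs PF and 2.03 for GP vs SAG, both past 3-fold, and -1.03 for PF vs COR.

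*Fgf10* was the only one of the 6 ligand genes that was not highest in GP. It was at 1.71 FPKM in PF, 1.66 in COR, 0.543 in GP, and 0.242 in SAG. PF and COR differed 1.03-fold, and SAG, with about 39 fragments, was lowest. No +1 ratio of *Fgf10* reached 3-fold; the largest was 1.13 (log2) for PF vs SAG.

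*Fgf2*, a ligand held in bone matrix, was at 3.04 FPKM in GP, 1.49 in PF, 1.44 in COR, and 0.271 in SAG. PF and COR were 1.03-fold apart, and the SAG value came from about 13 fragments. GP was above SAG by 1.67 on the log2 scale with 1 FPKM added, past 3-fold, and by 1.57 after a correction for GC content, just short of it. *Fgf1*, which can bind all the FGF receptors, was at 2.2 FPKM in GP. It stayed below 1 FPKM in all 3 sutures, with PF at 0.932, SAG at 0.653, and COR at 0.486.

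Of the 6 ligand genes, 5 were highest in GP, compared with 16.4% of the 13998 genes that reached 1 FPKM anywhere. Among the 5, *Fgf1* reached 1 FPKM only in GP. Of the 12 other secreted ligand genes of the family, 3 reached 1 FPKM in a library, and 0 of these 3 were highest in GP. Leaving out the SAG or the PF library could not lower this count, because a gene highest in GP stays highest there. It was 5 of 6 in both cases, against 28.8% of genes without SAG and 25.8% without PF. The summed FPKM of the ligands was 80.6 in GP, 29.7 in PF, 12.3 in COR, and 7.12 in SAG. Without *Fgf18* the sums were 19.2, 5.25, 7.19, and 2.52 in that order, so among these 6 genes the place of PF above COR came from *Fgf18*. The 12 other secreted ligand genes, left out of these sums, added 5.73 FPKM in PF, of which *Fgf16* was 4.11, and 2.41 in COR. SAG was lowest in the sums of the members, with and without *Fgf18*. In the sum of the 12 other genes GP was lowest at 1.96 FPKM, and SAG was at 2.58.

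The receptor genes varied less between libraries than *Fgf18* did, and 2 were highest in SAG and 2 in COR, which were the highest library for 28.4% and 19.9% of all genes. *Fgfr2* (mm9 chromosome 7, 137306026 to 137409759, minus strand), the receptor of Apert and Crouzon syndromes, was at 94.6 FPKM in COR, 48.8 in SAG, 46.8 in PF, and 46.3 in GP. COR stood 1.94-fold above SAG, whereas SAG, PF, and GP differed by at most 1.05-fold. The log2 ratio was -1.0 for PF vs COR, 0.94 for COR vs SAG, and -1.01 for GP vs COR, all short of 3-fold. COR was also the library with the highest level of each of the 9 osteoblast markers, among them *Sp7* at 199.9 FPKM against 7.93 to 47.3 elsewhere. The part of osteoblast content in the *Fgfr2* level was not tested.

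*Fgfr3* (mm9 chromosome 5, 34064373 to 34079716) was the receptor that set PF apart. It was at 13.5 FPKM in PF, 33.8 in GP, 41.4 in COR, and 48.6 in SAG. The gap between PF and the next library, GP, was 2.51-fold, and the steps among the others were 1.22-fold and 1.17-fold. The PF value rests on about 980 fragments. The log2 ratio was -1.78 for PF vs SAG, past 3-fold (-1.27 with values relative to *Gapdh*, short of it), -1.55 for PF vs COR, just short of it, and 1.27 for GP vs PF. After the GC correction PF vs COR came to -1.80 and GP vs PF to 1.62, both past 3-fold. Cartilage markers, which accompany *Fgfr3* in the growth plate, were high in SAG and GP and low in PF and COR. COR had *Fgfr3* at 41.4 FPKM with cartilage markers summing to 246, and PF had 13.5 FPKM with 279. The 12 markers went both ways between these libraries, with 7 higher in PF, 5 higher in COR, and a median log2 ratio of 0.24. The part of cartilage content in the *Fgfr3* levels was not tested.

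*Fgfrl1* (mm9 chromosome 5, 109123248 to 109135969), the receptor without a kinase, was lowest in COR. It was at 15.3 FPKM in COR, 30.4 in GP, 32.6 in PF, and 39.4 in SAG. COR was 1.99-fold below GP, the next library, and the other steps were 1.07-fold and 1.21-fold. The largest log2 ratio was -1.31 for COR vs SAG. *Fgfr1*, which like *Fgfr2* is a gene whose mutations can cause Pfeiffer syndrome, varied least of the 4, with a range of 1.84-fold. It was at 44.2 FPKM in COR, 36.7 in GP, 34.2 in PF, and 24.0 in SAG.

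**Figure D2:**
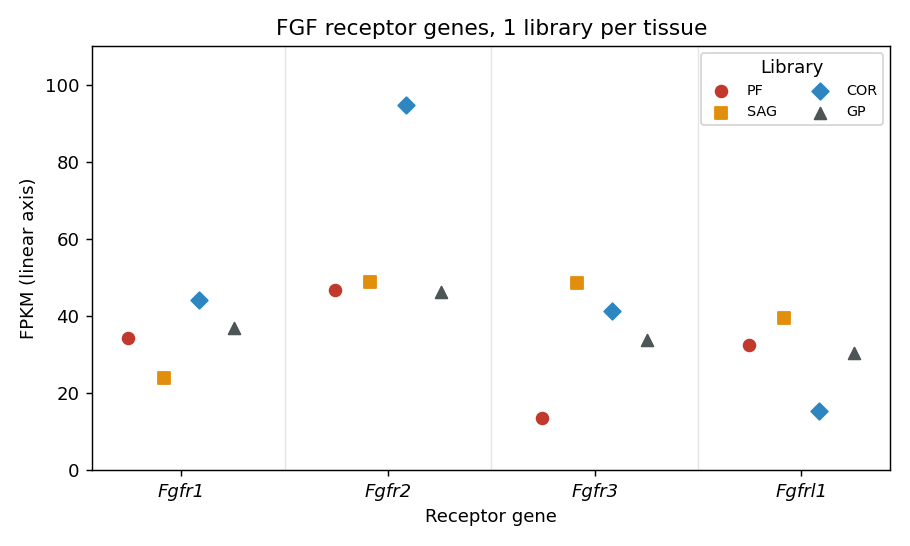
FPKM (linear axis) of the 4 FGF receptor genes, 1 point per library. *Fgfr2* is high in COR (94.6) and near 47 in the others, *Fgfr3* is low in PF (13.5), and *Fgfrl1* is low in COR (15.3).

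Shares within a library do not depend on how the libraries were scaled against each other. Of the summed FPKM of the 4 receptor genes, *Fgfr2* took 48.4% in COR, 36.9% in PF, 31.4% in GP, and 30.4% in SAG. *Fgfr3* took 10.6% in PF and 21.2% in COR, 23.0% in GP, and 30.2% in SAG. *Fgfrl1* took 7.81% in COR and 20.6% to 25.6% in the other libraries, and *Fgfr1* took 14.9% in SAG and 22.6% to 26.9% in the others. *Fgfr2* transcripts were 3.48 times those of *Fgfr3* per length in PF, 2.29 times in COR, 1.37 times in GP, and level with them in SAG at 1.0. Among the 3 kinase receptors alone, *Fgfr3* held 14.2% in PF and 40.0% in SAG.

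The ratio of *Fgf18* to *Fgfr3* within a library carries the differences of both genes already described. *Fgf18* was 1.81 times *Fgfr3* in PF and 1.81 times in GP, compared with 0.122 in COR and 0.0948 in SAG. PF and GP came out level because both genes were 2.51-fold lower in PF than in GP. Summed over all members, receptor FPKM was 22.6 times ligand FPKM in SAG, 16.0 times in COR, 4.28 times in PF, and 1.83 times in GP.

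**Figure D3:**
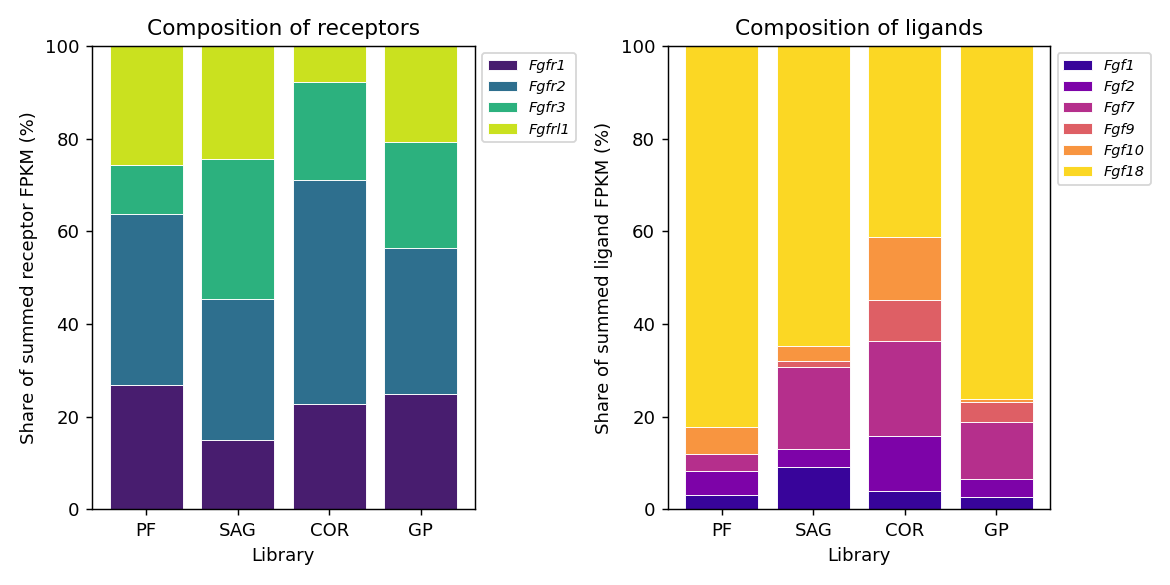
Stacked bars of the share (%) of each gene in the summed FPKM of the 4 receptors (left) and 6 ligands (right), 1 bar per library. *Fgfr3* is the thinnest receptor band in PF (10.6%), *Fgfrl1* in COR (7.81%), and *Fgf18* fills 41.3% of the ligand bar in COR and 82.3% in PF.

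Counted over the 10 genes, differences between libraries were few among the sutures. A gene entered a comparison with FPKM of 1 or more in either library and was counted when its ratio with 1 FPKM added was at least 3-fold. Between PF and SAG, 8 of the 10 genes entered and 2 were past 3-fold (*Fgf18* higher and *Fgfr3* lower in PF), compared with 15.7% of all 13490 genes tested (6.64% were higher in PF and 9.04% were lower). Between PF and COR, 9 entered and *Fgf18* alone passed, compared with 11.7% of 12853 (6.81% were higher in PF and 4.87% were lower). Between COR and SAG, 9 entered and 0 passed, compared with 9.25% of 12720. The counts for the sutures lie near these shares. With a pseudocount of 0.1 in place of 1 they were 4, 3, and 3 in the same order, the added genes being low ligands and *Fgfr3*. The shares of all genes tested rose as well at that pseudocount, to 27.4%, 22.8%, and 15.8%.

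Against GP, each call was a ligand gene that was higher in GP. Between GP and PF, all 10 genes entered and *Fgf7* and *Fgf9* passed, with 12.0% of 13101 genes past 3-fold and 6.24% in that direction. Between GP and SAG, 9 entered and *Fgf2*, *Fgf7*, *Fgf9*, and *Fgf18* passed, with 8.66% of 12929 genes past 3-fold and 3.86% in that direction. Between GP and COR, all 10 entered and *Fgf7* and *Fgf18* passed, with 4.40% of 12209 genes past 3-fold and 3.20% in that direction. *Fgf9*, and *Fgf2* for SAG, are lost when 1 FPKM is required in both libraries. The comparisons share the GP library. No receptor gene was past 3-fold between GP and any suture, except that *Fgfr3* passed for GP vs PF, at 1.62, after the GC correction. The median log2 ratio of the 4 receptors, each of which entered every comparison, was 0.04 for GP vs PF, -0.22 for GP vs SAG, and -0.27 for GP vs COR, beside -0.03, -0.03, and -0.02 over all genes tested.

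**Figure D4:**
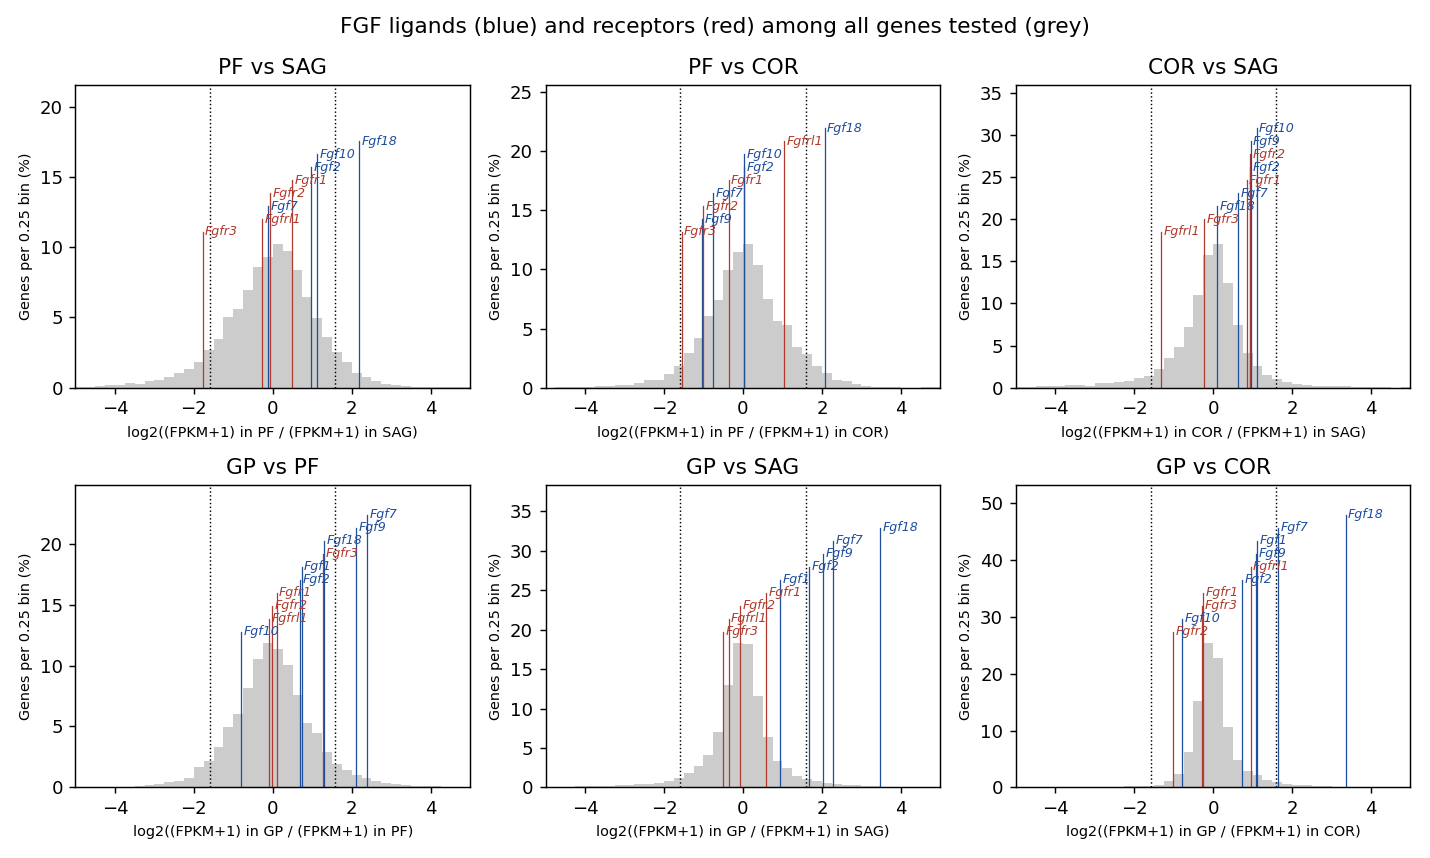
Log2 ratios with 1 FPKM added, 1 panel per pair of libraries, for all genes tested (grey bars, % of genes per bin of 0.25), with FGF ligands as blue and receptors as red lines and the 3-fold marks dotted. In the GP panels the lines past the right-hand mark are all ligands, and among the sutures *Fgf18* lies past it for PF vs SAG (2.18) and PF vs COR (2.07).

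Genes that FGF and ERK signaling induce, or that feed back on it, were read from a list of 16. In PF compared with SAG, 14 reached the filter, 6 were at least 3-fold lower and 1 higher in PF, and the median log2 ratio was -0.73 (0.03 over all genes tested, of which 9.04% were lower by 3-fold). The 6 include *Egr1* and *Fos*, which stood far higher in SAG than in any other library. In PF compared with COR, *Dusp6* and *Etv5* were lower among 14, none was higher, and the median was -0.83 (0.05 over all genes, 4.87% lower by 3-fold). *Etv5*, an ETS factor induced by FGF, was lowest in PF at 1.90 FPKM, against 8.73 in COR, 9.49 in GP, and 11.8 in SAG. *Dusp5*, a phosphatase of ERK, ran from 0.124 FPKM in PF through 2.32 in COR and 6.37 in SAG to 16.4 in GP. *Dusp4*, of the same family, ran from 0.288 in PF through 1.23 in COR and 1.88 in GP to 3.98 in SAG. *Dusp6* was 2.26 FPKM in PF and 16.6 to 24.8 in the others. The paper had already named *Dusp6*, from its bulk RNA sequencing, among genes downregulated in PF only, and it also reports RT-PCR of these genes. The part of *Dusp6* in the counts above was therefore known beforehand.

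The Sprouty genes, which encode inhibitors of receptor tyrosine kinase signaling, were ordered otherwise. *Spry1* stood at 46.7 FPKM in GP against 8.99 (SAG), 10.5 (COR), and 12.5 (PF), past 3-fold between GP and each suture. *Spry4* was at 5.34 FPKM in GP, 5.24 in PF, 1.43 in SAG, and 1.32 in COR, and *Spry2* at 1.94, 2.43, 1.20, and 0.467; neither passed 3-fold in any pair. For *Spry4* the order GP, PF, then SAG and COR resembles that of *Fgf18*, a likeness seen after the values were known. SAG had *Egr1* at 1279 FPKM and *Fos* at 2298 FPKM, early response genes that many stimuli induce, compared with 63.5 to 144.5 and 115 to 327 in the other libraries. *Ccnd1*, a G1 cyclin, was at 4.37 FPKM in SAG, 17.3 in PF, 41.4 in COR, and 43.3 in GP.

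**Figure D5:**
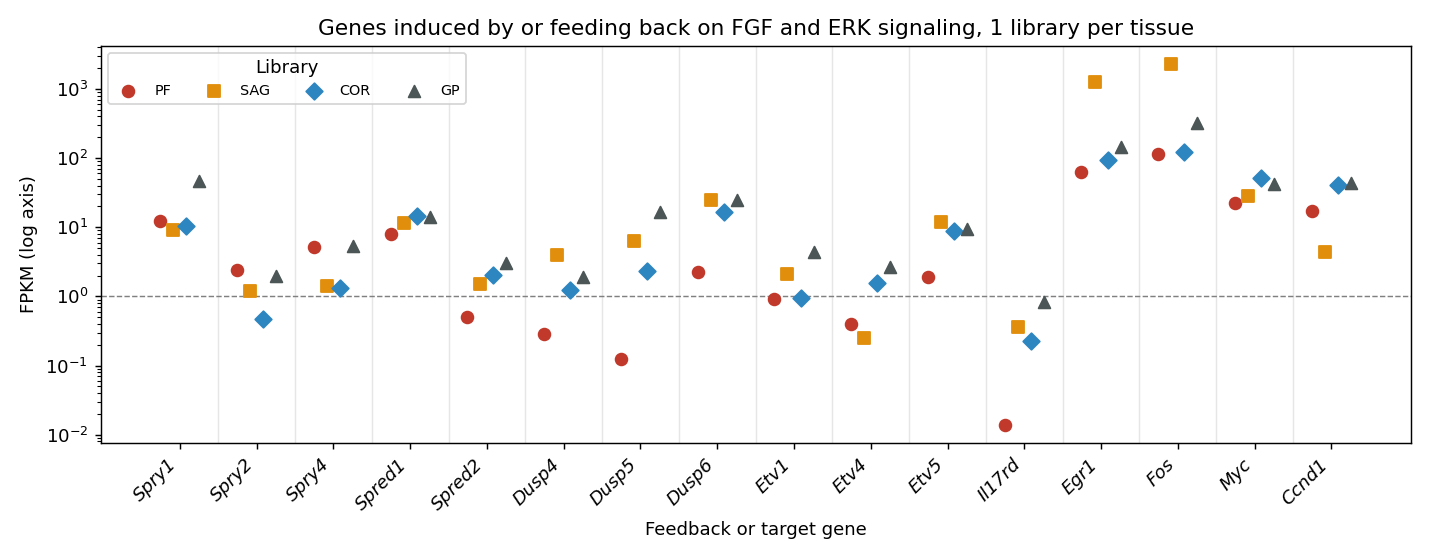
FPKM (log axis) of 16 genes that respond to or feed back on FGF and ERK signaling, 1 point per library, with a dashed line at 1 FPKM. PF is lowest for *Dusp4*, *Dusp5*, *Dusp6*, and *Etv5* (0.124 to 2.26), while *Spry4* is near 5 in PF and GP and below 1.5 in SAG and COR.

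The relay from receptor to ERK was read from a list of 19 genes. Of these, 1 was past 3-fold in PF vs SAG and in PF vs COR and 0 in the other 4 pairs, beside 15.7%, 11.7%, and 4.40% to 12.0% of all genes. This was *Frs3*, an adaptor of FGF receptors, which is listed at 0 in PF and had 4.51 FPKM in SAG, against 2.02 (COR) and 1.99 (GP). The medians of the list were between -0.13 and 0.06 (log2) over the 6 pairs. *Map2k2*, a kinase of ERK, was at 63.4 to 99.6 FPKM, and the adaptor gene *Shc1* at 53.1 to 70.8.

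Heparan sulfate proteoglycans and other partners of FGF ligands were read from a list of 18, of which 15 reached 1 FPKM in at least 1 library. For PF vs SAG, 2 were at least 3-fold higher and 2 lower in PF among 15 tested, beside 15.7% of all genes in either direction. For COR vs SAG 2 of 15 passed (9.25% of all genes), and for GP vs SAG 3 of 15 (8.66%). For PF vs COR it was 1 of 14 (11.7%), for GP vs PF 0 of 14 (12.0%), and for GP vs COR 0 of 13 (4.40%). Among the glypicans, which carry heparan sulfate at the cell surface, *Gpc1*, *Gpc3*, and *Gpc4* were lowest in SAG. *Gpc3* had 101 FPKM in SAG against 313 (COR), 418 (GP), and 427 (PF), past 3-fold in each of the 3 pairs with SAG. *Gpc1* was at 69.8 FPKM in SAG and 206 to 252 elsewhere, and *Gpc4* at 10.4 and 32.5 to 54.6. *Gpc6* went another way, with PF first (25.1 FPKM), then SAG (15.6), GP (7.80), and COR (6.89), and *Gpc2* was highest in SAG at 5.23 against 0.799 to 2.32. *Flrt2*, a membrane partner of FGF receptors, was at 23.7 FPKM in SAG and 4.99 in PF. The co-receptors *Kl* and *Klb*, which hormone-like FGFs need, stayed below 1 FPKM in every library.

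Of 13 genes of heparan sulfate synthesis and editing, all reached 1 FPKM in every library and 11 were highest in PF (35.2% of all genes were highest there). For PF vs SAG, 1 of 13 was at least 3-fold higher in PF and 0 lower (15.7% of all genes in either direction). For PF vs COR, 2 were higher and 0 lower (11.7%), and for GP vs PF, 1 was higher and 3 lower in GP (12.0%). The median log2 ratios were 0.82, 0.5, and -0.66 in that order. The count of 11 was not repeated under other scalings. *Ext2*, a subunit of the chain polymerase, was at 163 FPKM in PF and 73.6 to 100.8 in the others. *Sulf2*, a sulfatase that trims heparan sulfate, was at 281 FPKM in PF, 199.6 in COR, 158 in SAG, and 47.8 in GP, whereas *Sulf1* was highest in GP at 37.4 against 9.31 in PF. Of the sulfotransferases, *Hs3st1* was at 62.4 FPKM in SAG, 29.3 in PF, 5.23 in COR, and 3.31 in GP, *Hs6st2* at 12.7 in PF and 2.74 in COR, and *Hs3st3b1* at 8.46 in PF and 1.12 in SAG.

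For each member with FPKM of 5 or more in a library, the 3 genes with the nearest pattern were taken by Euclidean distance of mean-centred log2(FPKM + 1) over the 4 libraries, among 9696 genes. Few genes lay near *Fgf18*: 2 within a distance of 0.5, *Fbn2* (0.461) and *Il11* (0.465), with *Batf3* next at 0.558. *Fbn2*, a gene of an extracellular microfibril, was at 20.7 FPKM in GP, 11.5 in PF, 1.97 in SAG, and 1.63 in COR. Near *Fgf7* there were 5 genes within 0.5, led by *Hbegf* (0.273), *Afap1l2* (0.280), and *Mag* (0.287). The receptors had many neighbours within 0.5: 116 for *Fgfrl1* (*Pbx3*, *Wfdc2*, and *Smoc2* nearest), 199 for *Fgfr2* (*Ncs1*, *Klhl5*, and *Ppp2r1b*), 253 for *Fgfr3* (*Pus3*, *R3hcc1l*, and *Cul3*), and 1259 for *Fgfr1* (*Snf8*, *Arl1*, and *Cfl1*). With a pseudocount of 0.1, 2 of the 3 nearest genes were shared for *Fgf18*, *Fgfr1*, and *Fgfr2*, 1 for *Fgfrl1*, and 0 for *Fgf7* and *Fgfr3*.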

How the data were processed

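RNA of sorted cells was amplified with an ultra low input kit and sequenced as paired ends on an Illumina HiSeq instrument. The authors mapped reads to mm9 with STAR 2.5.1b and estimated FPKM per gene symbol with Cuffdiff of Cufflinks 2.2.1 and the Illumina iGenomes gene model. How Cuffdiff scaled the libraries is not given in the sources used here. FPKM carries no counts, so fragment numbers in the text are approximate, and they leave out amplification error.

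Groups followed the sample titles. With 1 library per tissue no test was made. Ratios were log2((FPKM + 1)/(FPKM + 1)) over genes with FPKM of 1 or more in either library, counted at 3-fold. Alternatives were a pseudocount of 0.1, median-ratio scaling, quantile normalization, values relative to *Gapdh*, other filters (none, 5 or more in either library, 1 or more in both), and a loess correction for transcript GC content (span 0.3, fitted at FPKM of 5 or more). GC content and length came from the longest coding transcript in GENCODE for mm9, found for 80.8% of symbols and all 10 FGF genes. Gene positions are those of that transcript.

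The FGF genes and the other lists were chosen with earlier results of these data known. Named besides the FGF genes were, of each list, genes past 3-fold in a pair, the 2 with the highest mean, and the 3 nearest by pattern; *Spry2*, *Spry4*, *Kl*, *Klb*, *Fgf3*, *Fgf6*, *Fgf8*, *Fgf13*, *Fgf21*, and *Fgf23* were added after their values were seen. The scripts ran in Python (3.11.15) on pandas (2.3.3) and numpy (2.4.6), with loess from statsmodels (0.14.6) and plots from matplotlib (3.10.9), and were tested on simulated data.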

Additional observations from a re-analysis of the deposited data

How the results depend on the processing

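With 1 library per tissue the spread between animals is unknown, and PF, the shallowest library by the step estimate, limits the low ligands most. No paired analysis was possible because the 4 libraries are 4 different tissues without repeats. With a pseudocount of 0.1, 4 FGF genes were past 3-fold for PF vs SAG in place of 2 (*Fgf2* and *Fgf10* added), 3 for PF vs COR in place of 1 (*Fgf9* and *Fgfr3* added), and 3 for COR vs SAG in place of 0 (*Fgf2*, *Fgf9*, and *Fgf10*). The shares of all genes tested at this setting were 27.4%, 22.8%, and 15.8%. After the GC correction the counts were 3 for PF vs SAG in place of 2 (*Fgf10* added), 2 for PF vs COR in place of 1 (*Fgfr3* added), 4 for GP vs PF in place of 2 (*Fgf18* and *Fgfr3* added), 3 for GP vs SAG in place of 4 (*Fgf2* lost), and 1 for GP vs COR in place of 2 (*Fgf7* lost). In the same order of pairs, 14.6%, 11.2%, 11.3%, 8.43%, and 4.14% of all genes tested passed after this correction. Relative to *Gapdh*, 1 gene passed for PF vs SAG, where *Fgfr3* came to -1.27, and 1 for GP vs COR, and with quantile normalization 1 passed for GP vs COR. The shares of all genes tested were 18.7%, 4.09%, and 4.03% in that order. With FPKM of 5 or more in either library, 1 passed for GP vs PF (10.8% of all genes) and 2 in place of 4 for GP vs SAG (9.72%). With 1 or more in both libraries the counts were the same, beside 5.65% and 4.67%. These filters take out low genes. The other causes were not tested. The log2 ratio of *Fgf7* for GP vs COR was 1.46 to 1.55 under quantile normalization, division by *Gapdh*, and the GC correction. Division by *Gapdh* shifted the median log2 ratio of all genes to 0.514 in PF vs SAG, 0.291 in PF vs COR, 0.232 in COR vs SAG, -0.456 in GP vs PF, and -0.214 in GP vs COR. No ratio past 3-fold changed sign; the ratios that did were 0.27 or smaller in size, among them *Fgfr2* and *Fgfrl1* for PF vs SAG, and of 275 alternative ratios of single genes 257 stayed on their side of the 3-fold mark. *Fgf18* stayed past 3-fold between PF or GP and SAG or COR under each of the 5 scalings and pseudocounts run for single genes. The count of ligands highest in GP was 5 of 6 under median-ratio scaling, quantile normalization, and division by *Gapdh*. It was also 5 of 6 with SAG or PF left out, where it could not have been lower. These settings were chosen after the data were seen.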

Other observations

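Of the 12 remaining secreted ligand genes of the family, *Fgf3*, *Fgf6*, and *Fgf23* are listed at 0 in every library, and 3 reached 1 FPKM in at least 1. *Fgf16* was at 4.11 FPKM in PF and at 0.051 to 0.455 in the others, past 3-fold in PF against each. *Fgf21*, a hormone-like ligand, was at 1.44 FPKM in COR and is listed at 0 in PF, and *Fgf8* reached 1.27 FPKM in SAG while PF and GP list it at 0.

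*Fgfr4*, the fourth kinase receptor, was at 5.20 FPKM in SAG, 2.43 in PF, 0.499 in COR, and 0.233 in GP. Among the FGF genes whose proteins stay inside cells, *Fgf12* was at 2.96 FPKM in SAG and 0.0715 to 0.274 elsewhere, and *Fgf13* was at 6.87 FPKM in PF, 4.80 in GP, 3.25 in SAG, and 1.63 in COR. The choroid plexus marker *Ttr* was at 5103 FPKM in SAG and the 7 neuron markers summed to 11.2 FPKM there, against 3.68 to 10.5 in the other libraries, with 0 of the 7 at 0 in SAG; the part of such RNA in the SAG levels of *Fgfr4* and *Fgf12* was not tested. Markers of endothelium summed to 1.10 to 16.9 FPKM, of blood to 6.35 to 49.9, and of muscle to 2.11 to 6.50. Those of epithelium summed to 10.2 to 12.8, and of meninges to 65.6 to 220.3. The blood sum was highest in PF. The endothelium and muscle sums were highest in SAG, mostly through *Kdr* (14.9 FPKM) and *Tnnt3* (6.02), whereas *Cdh5* was at 1.68 in PF and 0.649 in SAG. The meninges sum was 220.3 in PF and 203.6 in GP, where *Crabp2* alone was at 177.4, and *Ptgds* was highest in SAG at 91.3.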
